A study of Mus musculus with 3 samples.

Results

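The collagen genes of the mouse were followed across the cell types of an implanted skin graft, with cultured bone marrow cells beside them. A gene was a member when its symbol in the deposited gene list read Col, a number, the letter a and a number, which gave 44 members of 31053 genes. The members fall into 11 fibrillar genes, 6 genes of type IV, 2 multiplexins, 1 gene of anchoring fibrils, 7 genes of beaded filaments and their relatives, 9 fibril-associated genes, 3 genes of network-forming short chains, 4 transmembrane genes and 1 other. Single cells were sequenced from 3 droplet libraries, with 1 library for each condition and so no replicate for any value. The library hSTSG came from human split-thickness skin holding living cells, placed under the skin of wild-type mice (C57BL6/J) and taken out after 14 days, with the digests of 5 mice pooled and collagenase IV used to free the cells. The gene list holds mouse genes, so collagen RNA of the human graft cells has no gene of its own in these counts. The other libraries are GM-CSF cultures of bone marrow from C57/BL6 mice, left untreated (Co-Mac) or given VD3, the hormone form of vitamin D, at 1 μM for 24 h from day 7 (VD-Mac). No age of the mice is given in the labels.

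Each captured RNA molecule carries a unique molecular identifier (UMI), so a UMI count is a count of molecules. Molecules were captured at the 3′ end, so that a long and a short transcript each give 1 UMI, and levels of different genes are set side by side on this molecule scale with no division by length. After the cell filter, hSTSG held 2144 cells with 22646544 gene UMIs and a median of 6637.5 UMIs a cell, Co-Mac 7257 cells with 132574308 UMIs and VD-Mac 8825 cells with 116461484 UMIs. Levels are UMIs per 1000000 gene UMIs (CPM), taken after the UMIs of all cells of a type were summed. Intervals are exact at 95% and cover counting error only. They say nothing of the spread between mice.

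Collagens are matrix proteins built of chains wound into a triple helix. Fibrillar collagens form the rope-like fibers that give skin its strength, type IV collagens form the sheet of the basement membrane under epithelium and around vessels, and the other families coat fibers, link them to cells or form finer networks. In skin, fibroblasts are known as the main makers of fibrillar collagen, while endothelial cells and pericytes lay down the basement membrane of vessels. T cells and granulocytes are not known as makers of fibrillar collagen.

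Cell types were set by marker genes, none of them a collagen. A cell passed a gate with UMIs of at least 3 markers of a type and at least 1 marker UMI per 1000 UMIs, and a cell passing several gates was called mixed. The fibroblast gate held 122 cells with UMIs of 12 of 12 fibroblast markers, 16859 CPM in sum and Dcn, which codes for the proteoglycan decorin, as the most abundant. The endothelial markers summed to 13.4 CPM in those cells, with Cdh5, Emcn, Tie1, Cldn5, Ptprb and Mmrn1 at 0. The endothelial gate held 18 cells with 10 of 10 endothelial markers and 6779 CPM in sum, led by the junction gene Cdh5. Fibroblast markers came to 435 CPM there, with 7 of 12 found, Fbln2 the most abundant and Lum, Fbln1, Mfap5, Mmp2 and Igfbp6 at 0. The immune gates held 852 macrophages, 513 granulocytes, 232 T or NK cells, 57 dendritic cells, 30 monocytes, 19 cells of the B lineage and 9 mast cells or basophils. Only 3 cells passed the pericyte or smooth muscle gate, 2 the Schwann cell gate, 2 the keratinocyte gate and 1 the erythroid or platelet gate, while 107 were mixed and 177 passed no gate.

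Collagen took 233726 UMIs in the kept graft cells, or 10321 CPM, against 15.6 CPM in Co-Mac and 18.9 CPM in VD-Mac. Of the 44 members, 29 had at least 20 UMIs in the graft, 9 had 1 to 19 and 6 had none, and 2 had no UMI in any of the 3 libraries. The fibroblasts, 5.69% of the cells, held 85.7% of the collagen UMIs (85.6 to 85.8). Collagen made up 6.38% of all fibroblast UMIs (6.35 to 6.41). The share fell to between 1.42% and 1.59% in the 3 pericytes or smooth muscle cells, 0.698% in endothelial cells (0.667 to 0.729) and 0.519% in the 2 Schwann cells (0.412 to 0.644). The share stood at 0.0211% in granulocytes (0.0189 to 0.0235) and 0.0122% in macrophages (0.0116 to 0.0128). It was 0.0105% in T or NK cells (0.00891 to 0.0122) and 0.0102% in dendritic cells (0.00811 to 0.0127). In this order macrophages, T or NK cells and dendritic cells have overlapping intervals. Each other step down in these pooled shares lies outside counting error. As a mean over cells, however, the macrophage share was 0.0206%, beyond its interval, with no such value given for granulocytes. Most of the remaining collagen, 28016 UMIs, lay in mixed cells. Among these, 17 cells that passed the fibroblast gate with another gate carried 24862 collagen UMIs, 5.59% of their UMIs. All cells that passed the fibroblast gate, alone or mixed, held 96.3% of the collagen UMIs.

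**Figure D1:**
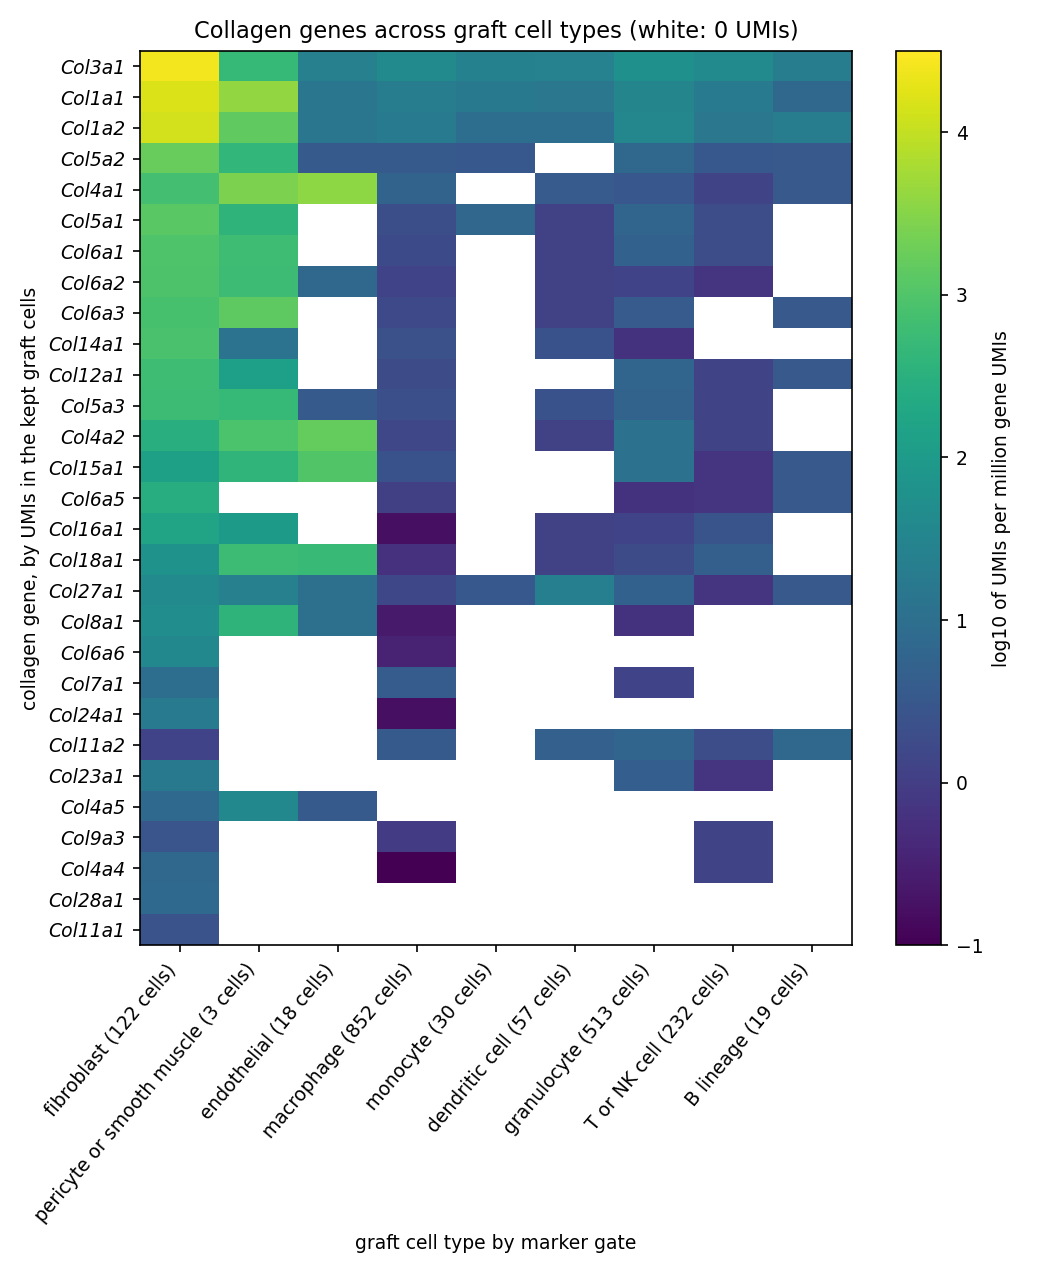
Level of each of the 29 collagen genes with at least 20 UMIs in the kept graft cells (vertical axis, ordered by UMIs) in 9 marker gates (horizontal axis, with cells per gate), as log10 of CPM, with white for no UMI. The fibrillar genes Col3a1, Col1a1 and Col1a2 reach their highest levels in fibroblasts, while Col4a1, Col4a2, Col15a1 and Col18a1 stand at 3736, 1620, 993 and 522 CPM in endothelial cells.

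Fibroblasts were set against all immune gates together, with a gene counted as higher at 4-fold or more and at least 10 CPM in the higher group. Of the 44 members, 22 reached 10 CPM in either group, and 22 were higher in fibroblasts and 0 lower, where 13.5% of all 8928 genes tested were higher and 13% lower. The median log2 ratio was 8.12 over those 22 members and −0.22 over all genes tested. Since most of them reached 10 CPM only in fibroblasts, they could hardly have come out otherwise, and the count describes the gates without setting collagens apart. Endothelial cells were set against fibroblasts in the same way. Here 4 members were higher in endothelial cells, against 13.1% of 9353 genes, and 14 were lower, against 6.85%, of 22 members tested. Of these 14, 10 reached 10 CPM only in fibroblasts and could hardly have come out otherwise, so nothing is read from that count. The median log2 ratio over all genes tested was 0.46. Against the immune gates, endothelial cells were higher in 5 of 9 members tested, where 16% of 9416 genes were higher, and lower in 0, where 8.51% were lower. These 5 are Col4a1, Col4a2, Col15a1 and Col18a1, and Col8a1 with no more than 3 endothelial UMIs behind it. Each of them reached 10 CPM only in the endothelial cells of this pair, so this count too is a description.

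Fibrillar genes made up 90.8% of the collagen UMIs of fibroblasts. Col3a1, which codes for the chain of type III collagen of young and pliable fibers, led with 24905 CPM. Col1a1 and Col1a2 code for the chains of type I collagen, the bulk fiber of skin, and followed at 16039 and 13357 CPM. Together the 3 genes reached 54302 CPM in fibroblasts, 54.4 CPM in endothelial cells and 83.9 CPM over the immune gates. The fibroblast level was 647-fold that of the immune gates (log2 ratio 9.34, 9.26 to 9.42), and as a mean over cells the log2 ratio was 8.66, outside that interval. The endothelial level rests on 15 UMIs and lies within the range of the immune gates. It depends on how mixed cells are handled: the log2 ratio of Col3a1 in endothelial cells over fibroblasts was −9.94, −6.01 with mixed cells kept in the type of most marker UMIs and −5.52 by clusters, and that of Col1a1 was −10.11, −6.81 and −6.21.

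A type I collagen molecule holds a pair of chains from Col1a1 for each chain from Col1a2. The RNA ratio of Col1a1 to Col1a2 in fibroblasts was 1.20 (1.19 to 1.22), below the ratio of the protein chains. Col3a1 stood at 1.55 times Col1a1 (1.54 to 1.57). In the 3 pericytes or smooth muscle cells the balance was another: Col1a1 was 2.80 times Col1a2 (2.26 to 3.50) and Col3a1 0.118 times Col1a1 (0.0820 to 0.165). The cells differ among themselves, with 286, 35 and 1 UMIs of Col1a1, so the ratio is mostly that of 1 cell.

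The genes of type V collagen, a minor chain set that starts fibrils and limits their width, came next. Col5a2 stood at 1700 CPM, Col5a1 at 1257 CPM and Col5a3 at 592 CPM in fibroblasts. The log2 ratio over the immune gates was 8.85 for Col5a2 (8.48 to 9.24), 8.96 for Col5a1 (8.52 to 9.44) and 7.95 for Col5a3 (7.49 to 8.45). The lowest values among the alternatives were 7.91, 8.45 and 7.55, the first 2 below their intervals. All 3 were also present in pericytes or smooth muscle cells, at 440, 378 and 491 CPM, so that Col5a3 was there level with its partners and not below them. In endothelial cells they had 1, 0 and 1 UMIs. This too depends on the mixed cells: the log2 ratio of endothelial cells over fibroblasts went from −8.87 to −4.24 with mixed cells kept and −3.76 by clusters for Col5a2, and from −7.35 to −2.24 and −1.70 for Col5a3. For Col6a2, a chain of type VI collagen, it went from −6.99 to −2.62 and −2.02.

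The other fibrillar genes were scarce. Col27a1, a fibrillar gene known from cartilage, stood at 43.3 CPM in fibroblasts, with 136 UMIs in 55 cells. Col24a1, a relative of Col27a1 known from bone, reached 19.4 CPM in fibroblasts and had 2 UMIs in the immune gates. Col11a1, whose chain joins thin cartilage fibrils, had 20 UMIs in the library, 9 of them in 1 Schwann cell that also held 8 UMIs of Col27a1. Col11a2, its partner chain, was the exception among fibrillar genes. It had 4 UMIs in fibroblasts and 62 over the immune gates, a level of 1.27 against 3.81 CPM (log2 ratio −1.58, −3.50 to −0.15). Col2a1, the main fiber of cartilage, had no UMI in the graft.

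Genes of beaded filaments took 4.70% of fibroblast collagen UMIs. Type VI collagen, a filament that ties cells to the fibers around them, is assembled from Col6a1, Col6a2 and a longer chain such as Col6a3. In fibroblasts Col6a1 stood at 985 CPM, Col6a2 at 921 CPM and Col6a3 at 788 CPM, so that the 3 chains were close to each other. The ratio of Col6a1 to Col6a2 was 1.07 (1.02 to 1.13), near even. Pericytes or smooth muscle cells held Col6a1 and Col6a2 in the same ratio (1.04, 0.684 to 1.59) but Col6a3 at 2.18 times Col6a1 (1.54 to 3.13), against 0.799 (0.758 to 0.843) in fibroblasts. Of the chains that can stand in for Col6a3, Col6a5 reached 262 CPM and Col6a6 36.3 CPM in fibroblasts. Both were at 0 in pericytes or smooth muscle cells and in endothelial cells. A count of 0 allows up to 3 UMIs, in 79470 for the former and 275982 for the latter. For Col6a6, which is scarce in fibroblasts too, nothing is therefore read from these counts of 0. Col28a1, a relative found near nerves, had 25 UMIs, 24 of them in fibroblasts, against 0 in the immune gates (log2 ratio of at least 4.97 by the exact interval).

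Fibril-associated collagens, which sit on the surface of fibers and bridge them, took 2.51% of fibroblast collagen UMIs. Col14a1, which binds decorin-coated fibers, stood at 829 CPM in fibroblasts. Col12a1, its relative in tissue under tension, reached 607 CPM. Col16a1, which links fibers to microfibrils, reached 163 CPM. The 3 genes were at 0 in the 18 endothelial cells, where a count of 0 for a gene allows up to 3 UMIs in 275982. Col9a3, a chain of a cartilage collagen, had 28 UMIs in the library, 9 in fibroblasts and 11 in macrophages.

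The basement membrane genes had another order of cell types. Col4a1 and Col4a2 code for the chains of the type IV network found in nearly every basement membrane. Col4a1 stood at 3736 CPM in endothelial cells, 2580 CPM in pericytes or smooth muscle cells, 705 CPM in fibroblasts and 4.67 CPM over the immune gates. Col4a2 stood at 1620, 893, 296 and 2.33 CPM in the same groups. The 2 genes in sum were 5.35-fold higher in endothelial cells than in fibroblasts (log2 ratio 2.42, 2.33 to 2.51) and 143-fold higher in fibroblasts than in immune gates (119 to 174). The latter moved beyond its interval with other choices: the log2 ratio of Col4a1 was 7.24, 5.98 with mixed cells kept and 6.46 by clusters, and that of Col4a2 was 6.99, 5.82 and 6.40, and 5.77 as a mean over cells. In the gates alone, fibroblasts held 2214 UMIs of Col4a1 and endothelial cells 1031, from 122 and 18 cells. Mixed cells that passed the endothelial gate, 7 in number, held a further 1110 UMIs of it. The 17 mixed cells that passed the fibroblast gate held 353. The part of cell number and depth in this was not tested. Col4a1 and Col4a2 kept close to a fixed ratio in the stromal gates: 2.31 in endothelial cells (2.06 to 2.58), 2.39 in fibroblasts (2.21 to 2.58) and 2.89 in pericytes or smooth muscle cells (2.19 to 3.84). On few UMIs the ratio was 3.82 in macrophages (2.21 to 6.96) and reversed, at 0.278, in granulocytes (0.0806 to 0.776).

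The multiplexins Col15a1 and Col18a1 code for collagens with sugar side chains that sit at the outer face of the basement membrane, and the end piece of the latter is endostatin. Col15a1 stood at 993 CPM in endothelial cells, 390 CPM in pericytes or smooth muscle cells and 131 CPM in fibroblasts. Col18a1 stood at 522, 604 and 66.3 CPM in the same order, so that in pooled level pericytes or smooth muscle cells were near endothelial cells for it. Of its 144 endothelial UMIs, however, 60 were in 1 cell and 32 in another. The median endothelial cell stood at 256 CPM of Col18a1, so its pooled level and the ratio below rest much on those cells. Of Col15a1, the 3 pericytes or smooth muscle cells had 29, 2 and 0 UMIs, so its level there is mostly that of 1 cell. Endothelial cells exceeded fibroblasts 7.60-fold for Col15a1 (6.50 to 8.88) and 7.87-fold for Col18a1 (6.32 to 9.78). The log2 ratio of Col15a1 was 2.93 (2.70 to 3.15) and ran from 2.38 to 3.32 among the alternatives, beyond both ends. That of Col18a1 was 2.98 (2.66 to 3.29) and ran from 2.49 to 3.26, beyond the lower end. Type IV and multiplexin genes together made nearly all collagen of endothelial cells, 76.8% and 21.7% of its UMIs.

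Cell by cell, Col4a1 was found in 18 of 18 endothelial cells, from 744 to 7446 CPM with a median of 3485 CPM. In fibroblasts it was found in 103 of 122 cells, with a median of 359 CPM and a highest level of 4816 CPM. The ranges overlap, and some fibroblasts carried as much as an endothelial cell. Col15a1 was found in 17 of 18 endothelial cells and 55 of 122 fibroblasts, and Col18a1 in 13 and 76. The median fibroblast had no UMI of Col15a1, although the fibroblasts were the deeper cells, with a median of 25461 UMIs against 10728.5.

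**Figure D2:**
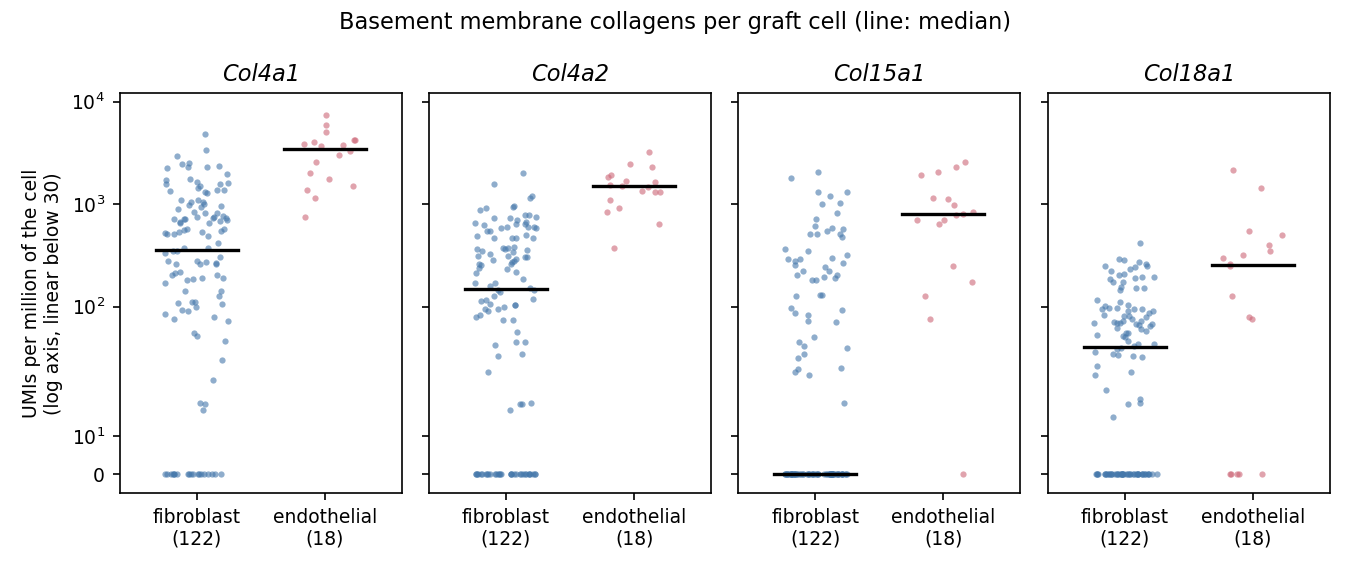
Level of Col4a1, Col4a2, Col15a1 and Col18a1 in each of 122 fibroblasts and 18 endothelial cells of the graft, in CPM on a log axis that is linear below 30. Each point is a cell and each line a median, 359 CPM for Col4a1 in fibroblasts and 3485 CPM in endothelial cells.

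The 3 pericytes or smooth muscle cells had 115, 16 and 74 UMIs of Col4a1, so each of them carried it. A further 4 mixed cells passed both the pericyte and the endothelial gate. They held 4620 CPM of Col4a1 and 1969 CPM of Col4a2, near the endothelial level, beside 1383 CPM of Col3a1. The other type IV chains, which replace the common pair in kidney and some other membranes, were rare. Col4a5 had 31 UMIs, 24 of them in fibroblasts and 0 in the immune gates, with the same bound of 4.97. Col4a4 had 27 UMIs, 23 of them in fibroblasts, in 14 cells. Col4a6 had no UMI.

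Of the remaining families, Col8a1, a short chain that forms networks around vessels, had 158 UMIs in fibroblasts (50.3 CPM) and 30 in pericytes or smooth muscle cells (378 CPM), 28 of these in 1 cell. Col23a1, a transmembrane collagen, had 72 UMIs, 53 of them in 8 fibroblasts and up to 18 in 1 cell. Col7a1, which forms the fibrils that anchor epidermis to dermis, had 87 UMIs, 46 in macrophages and 30 in fibroblasts. It was below 10 CPM in each of those gates. Keratinocytes, which make Col7a1 in skin, were represented by 2 cells, with 0 UMIs of it. The 9 members with 1 to 19 UMIs had 17 at most, and the 6 with none belong to the fibrillar, type IV, fibril-associated and transmembrane families.

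Fibroblasts differed widely among themselves. Collagen took from 0.203% to 18.2% of the UMIs of a fibroblast, with a median of 5.71% and quartiles of 4.32% and 8.14%. There were 18 cells at 10% or more and 4 below 1%. The ends of this range are shallow cells: the 4 lowest had 1477 to 3998 UMIs and the 3 highest 1532 to 4880, against a median of 25461. The leading genes were spread over the whole population: Col1a1 and Col3a1 were found in 122 of 122 cells and Col1a2 in 121. Col3a1 ran from 410 to 64236 CPM with a median of 23192 CPM, and its 12 richest cells held 24.6% of its UMIs. Some other genes were held by fewer cells. The 12 richest cells held 68.5% of the UMIs of Col12a1, 80.4% of Col8a1, 71.9% of Col6a6 and 57.6% of Col15a1. Col12a1 reached 7364 CPM in a cell while its median was 67.6 CPM. Other minor genes were spread about as evenly as Col1a1, at 29.6%: the share was 28.0% for Col6a1, 28.2% for Col6a3, 28.3% for Col5a2, 30.0% for Col14a1 and 31.6% for Col5a3. For rare genes few UMIs alone can give a high share.

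Levels were also correlated across the 122 fibroblasts as a description. These cells come from 1 library, and their depth and their sharing of a fixed total of CPM act on all pairs. The highest values were those of chains that share a molecule: Spearman's rho was 0.89 for Col1a1 with Col1a2, 0.88 for Col6a1 with Col6a2 and 0.85 for Col4a1 with Col4a2. Col3a1 had 0.72 with Col1a1 and 0.74 with Col1a2, and Col1a1 had 0.78 with Col5a2 and 0.76 with Col5a1. Col6a5 and Col6a6 had 0.56 with each other. Type I and type IV chains did not move together. Col1a1 had −0.28 with Col4a1 and −0.11 with Col4a2, and Col1a2 had −0.13 and −0.0048 with them. Other partner chains were lower, with 0.69 for Col5a1 with Col5a2, 0.40 for Col5a1 with Col5a3, 0.21 for Col5a2 with Col5a3, 0.53 for Col6a3 with Col6a1 and 0.49 for Col6a3 with Col6a2. So partner chains did not always vary together more closely than chains of different molecules. Of the partner genes, Sparc, a chaperone-like matrix protein that binds collagen, had 0.79 with Col1a1, and Postn, a matrix protein of healing skin, had 0.78 with Col6a1. Col12a1 had −0.67 with the fibroblast marker Clec3b, but −0.18 with the marker Dcn and 0.02 with the marker Pdgfra. With the cross-linking enzyme Lox it had 0.51. Depth moved with Col12a1, whose rho with UMIs per cell was 0.46, and its part in these values was not tested. For Col1a1 that value was 0.20, for Col3a1 0.09 and for Col4a1 0.15.

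Other genes of the collagen pathway were taken from a list of 48 genes in 5 classes and set between fibroblasts and immune gates by the same rule, against the same background of 13.5% of genes higher and 13% lower. Of 19 genes that modify and fold chains in the endoplasmic reticulum, 17 were tested, 9 were higher in fibroblasts and 0 lower. Of the 9, all but Crtap were under 10 CPM in immune gates. Serpinh1, the collagen chaperone HSP47, stood at 2778 CPM in fibroblasts, 1138 CPM in endothelial cells and 5.71 CPM in immune gates, and so was high in both stromal types. Ppib and P4hb, a prolyl isomerase and a hydroxylase subunit that also fold other proteins, were at 789 and 673 CPM in fibroblasts and 250 and 295 CPM in immune gates, short of 4-fold. Of 7 genes that trim procollagen, 4 were tested and 4 were higher. Bmp1, the protease that removes the end piece of fibrillar chains, stood at 690 CPM, Adamts2, which removes the front piece, at 506 CPM and Pcolce2, which speeds Bmp1, at 164 CPM. Each of the 3 was under 3 CPM in immune gates. The 5 cross-linking genes were all tested and all higher in fibroblasts, led by Lox at 1060, Loxl1 at 694 and Loxl2 at 394 CPM. Lox and Loxl1 were at 0 UMIs in endothelial cells. The trimming and cross-linking genes tested reached 10 CPM in fibroblasts and not in immune gates, so their counts too could hardly have come out otherwise and are a description.

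Of 9 genes of receptors and uptake, 7 were tested, 4 were higher in fibroblasts and 1 was lower. Each of these 5 reached 10 CPM in only the higher group, so the counts are a description. The 1 lower is Lair1, a collagen receptor of immune cells, named after its values were seen, with 0 UMIs in fibroblasts and 66.6 CPM in immune gates. Itgb1, the beta chain shared by the collagen integrins, stood at 382 CPM in fibroblasts and 254 CPM in immune gates. Mrc2, which takes up collagen fragments, stood at 256 and 0.982 CPM, and Ddr2, a kinase receptor for fibrillar collagen, at 210 and 0.553 CPM. Of 8 matrix partners and myofibroblast genes, 8 were tested and 7 were higher, of which all but Sparc reached 10 CPM only in fibroblasts of this pair, so this count is a description as well. Sparc stood at 11199 CPM in fibroblasts, Fn1 (fibronectin) at 3000 and Postn at 1787 CPM. Fn1 was the gene not called, since immune gates held 1862 CPM of it, mostly in macrophages. The contractile gene Acta2 was found in 15 of 122 fibroblasts and at 0 in 107, so that most of these collagen-rich cells had no UMI of it. This gene too was named after its values were seen.

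Several members lie beside each other in the genome (RefSeq gene order). Among neighbours with a rho across fibroblasts, the highest values (given above) are those of Col4a1 with Col4a2 and of Col6a2 with Col6a1. The former lie on chromosome 8, on opposite strands, and the latter on chromosome 10, on the same strand. Col3a1 and Col5a2 are neighbours on chromosome 1, with a rho of 0.62, below that of Col1a1 and Col1a2, which are not neighbours. Col6a6, Col6a5 and Col6a4 form a row on chromosome 9, and of these Col6a4 had 4 UMIs. Neighbouring genes thus did not always vary together more closely than genes that lie apart.

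Promoter sequence from RefSeq (GRCm38.p6), the 250 bases before the gene start, was there for 35 of the 44 members, with 38 promoters. On either strand, the CCAAT box (CCAAT) was found in 34.2% of them and in 33.8% of all 32851 promoters, and the TATA box (TATAAA) in 13.2% and 12.4%. The GC box (GGGCGG) was found in 57.9% and 32.7%. These matches are letters in a window and not shown to be sites. The sequences of Col1a2 and Col3a1 are shown because they are the leading fibroblast genes with a promoter in this table, which has none for Col1a1. They differ in these letters: capitals mark a CCAAT box and 2 GC boxes in Col1a2 (chr6:4505368-4505617, plus strand) and a TATA box in Col3a1 (chr1:45311288-45311537, plus strand), both 5′ to 3′.
Col1a2: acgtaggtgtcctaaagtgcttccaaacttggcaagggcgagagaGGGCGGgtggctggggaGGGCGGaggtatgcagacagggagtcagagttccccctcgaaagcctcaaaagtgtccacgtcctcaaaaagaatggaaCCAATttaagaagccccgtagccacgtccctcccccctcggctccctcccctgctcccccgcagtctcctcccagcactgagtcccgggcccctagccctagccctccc
Col3a1: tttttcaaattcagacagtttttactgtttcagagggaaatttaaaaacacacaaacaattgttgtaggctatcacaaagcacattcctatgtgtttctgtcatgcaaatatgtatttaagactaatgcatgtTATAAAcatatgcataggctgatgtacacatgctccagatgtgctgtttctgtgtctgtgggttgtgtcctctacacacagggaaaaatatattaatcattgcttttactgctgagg

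Immune cells held few collagen UMIs each, and the 852 macrophages had 1430 in sum, 0.612% of the collagen UMIs of the graft. Droplets also take up free RNA from broken cells. In macrophages 527 of 852 cells, 61.9%, had a UMI of Col1a1, Col1a2 or Col3a1, against 29.4% of granulocytes and 40.5% of T or NK cells. The types differ in depth, with medians of 11050, 2340 and 5648 UMIs. When each cell was thinned to 2000 UMIs, the share was 18.4% of macrophages (15.8 to 21.3), 20.7% of granulocytes (16.6 to 25.2), 37 of 231 T or NK cells (11.5% to 21.4%) and 18.2% of dendritic cells (9.08 to 30.9). Fibroblasts were at 119 of 119. At this depth the intervals of the immune shares overlap, but 155 of 513 granulocytes were too shallow to be used. Thinned to 1000 UMIs, with 12 granulocytes unused, the shares were 15.4% of granulocytes (12.3 to 18.8), 11.5% of macrophages (9.42 to 13.9) and 20 of 232 T or NK cells, 8.62%, with granulocytes highest. The part of free RNA in these shares was not tested, and the deposited matrices hold called cells without the empty droplets that would show it. Over all cells the level of the 3 genes was 127 CPM in granulocytes (110 to 145), 82.5 CPM in macrophages (77.4 to 87.8), 76.4 CPM in T or NK cells (63.2 to 91.7) and 52.2 CPM in dendritic cells (37.6 to 70.6). On this scale granulocytes, the shallowest of these cells, stood above the other types listed here beyond counting error. The part of depth in that was not tested. The 9 mast cells or basophils stood at 204 CPM (93.3 to 387), an interval that overlaps that of granulocytes. The fibroblast marker Dcn, after thinning, gave 2.40% of macrophages, 3.07% of granulocytes and 3.46% of T or NK cells.

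The mix of the 3 genes was compared with that of fibroblasts. Col3a1 made 45.9% of their UMIs in fibroblasts, 50.8% in macrophages (47.6 to 54.0), 46.0% in granulocytes (39.0 to 53.2) and 54.3% in T or NK cells (44.8 to 63.6). The macrophage share lies above the fibroblast share beyond counting error, and Col3a1 over Col1a1 was 1.55 in fibroblasts (1.54 to 1.57) with an interval of 1.71 to 2.34 in macrophages. To put all genes on a common scale, each was set against its UMIs in the 173 cells that passed a gate of a cell that is not a blood cell, alone or mixed, called stromal here. These cells held 99.0% of the collagen UMIs. For the 3 genes together, macrophages held 5.03 UMIs per 1000 stromal UMIs (4.72 to 5.36), from 968 UMIs. Within the 3, Col3a1 was at 5.66 (5.17 to 6.19) and Col1a1 at 4.32, with intervals that do not overlap, so this ratio is an average over genes that differ. Col5a1 at 5.16, Col6a1 at 5.54, Col6a2 at 4.52 and Col6a3 at 6.04 per 1000 had intervals that overlap this range. The same held for the fibroblast markers Dcn at 5.28 and Dpt at 5.52, and for Sparc at 5.15. These genes were named because their intervals overlap, and the part of any source in this was not tested.

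Not every gene kept that ratio. Of the 26 other members with at least 20 UMIs in the graft, 11 were above it in macrophages, 0 below, and 15 overlapped it, where 93.6% of all 13124 genes with as many UMIs were above and 0.0152% below. That background counts genes of every cell type, immune genes among them. Members with few stromal UMIs could hardly fall below: Col4a5, Col28a1 and Col11a1 would have had 0.151, 0.126 and 0.101 UMIs at the ratio. Against fibroblasts alone in place of all stromal cells, 13 were above, and 9 in place of 8 in granulocytes. The share of all genes was not taken against fibroblasts alone, so nothing is read from those counts. The choice of stromal cells was made after the data were seen, because endothelial and mixed cells also hold basement membrane genes. Comparators outside the collagens varied too: of 14, 4 were above in macrophages, among them Lum at 9.32, Mmp2 at 11.7 and Igfbp6 at 136 per 1000, and 1 was below, Clec3b at 1.75. So fibroblast markers were above the ratio too, Lum and Mmp2 by 1.85 and 2.32 times and Igfbp6 by 27.0 times. Fn1 was the extreme, with 30071 UMIs in macrophages and 10733 in stromal cells.

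The largest values were those of members that are rare in stromal cells. Col11a2 and Col9a3 reached 20 UMIs only with their immune cells, so the filter left them hardly any way but above the ratio and their counts are a description. Col11a2 had 42 UMIs in 38 macrophages against 4 in all stromal cells. Col7a1 had 46 UMIs in 41 macrophages against 37, and Col9a3 11 UMIs in 11 macrophages against 13. The UMIs were spread over cells, with at most 2 in a cell for Col7a1 and Col11a2 and 1 for Col9a3. At the ratio of the leading fibrillar genes, Col7a1 would have had 0.186 UMIs in macrophages and Col11a2 0.0201. Col27a1 had 18 UMIs in 12 macrophages, against 0.841 at that ratio. Beside the macrophages, 12 of 57 dendritic cells held 19 UMIs of Col27a1, a level of 23.6 CPM (14.2 to 36.9) against 1.53 CPM in macrophages (0.909 to 2.42).

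Of the basement membrane genes, Col4a1 and Col15a1 were above the ratio in macrophages. Col4a1 had 65 UMIs in 62 cells, 13.2 per 1000 stromal UMIs (10.2 to 16.9), and Col15a1 28 UMIs, 31.6 per 1000 (20.9 to 45.9). Col4a2 at 8.28 (4.81 to 13.3) and Col18a1 at 12.8 (5.12 to 26.5) overlapped it, as did Col4a4 with 1 UMI and Col4a5 with 0. Of the endothelial markers, 9 of 10 had UMIs in macrophages, 11.9 CPM in sum, led by Kdr at 7.24 CPM and with Mmrn1 at 0. The fibroblast markers had UMIs for 12 of 12, 55.8 CPM in sum, led by Igfbp6. Their part in the excess was not tested. The other members above the ratio in macrophages were Col14a1, Col12a1, Col5a3, Col6a5 and Col6a6, with 27, 21, 26, 13 and 4 UMIs. These are small numbers with wide intervals, and 26 genes were compared.

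In granulocytes 8 of the 26 were above the ratio, which was 1.05 per 1000 there, against 79.9% of all genes and 3 of the 14 comparators, Pdgfra, Igfbp6 and Fn1. They included Col15a1 with 19 UMIs in 17 cells, Col4a2 with 18 in 14 cells and Col11a2 with 10 in 10 cells. Others rest on few cells: all 8 UMIs of Col27a1 were in 1 granulocyte, 6 of 9 of Col5a3 were in 1 and 7 of Col23a1 were in 3. The remaining genes, Col12a1 and Col7a1, had 10 and 2 UMIs. In T or NK cells 5 were above, with 2 to 7 UMIs each, against 84.8% of all genes and 1 of the 14 comparators. In dendritic cells 2 were above, Col27a1 and Col11a2, against 79.7% of all genes and 2 of the 14 comparators. None of these shares sets collagens above other genes.

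Macrophages were also divided by the receptor gene Trem2. Those with a Trem2 UMI (570 cells, median 13997 UMIs) held 72.4 CPM of Col1a1, Col1a2 and Col3a1 together (67.2 to 78.0), and those without (282 cells, median 5534) held 131 CPM (116 to 148). Dcn moved the same way, at 9.24 and 18.0 CPM. Col11a2 at 3.60 and 3.50 CPM and Col15a1 at 2.36 and 2.50 CPM had overlapping intervals on few UMIs, as had Col7a1 with 38 and 8 UMIs, and Fn1 went the other way, at 2713 and 1830 CPM. The part of depth in this was not tested.

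**Figure D3:**
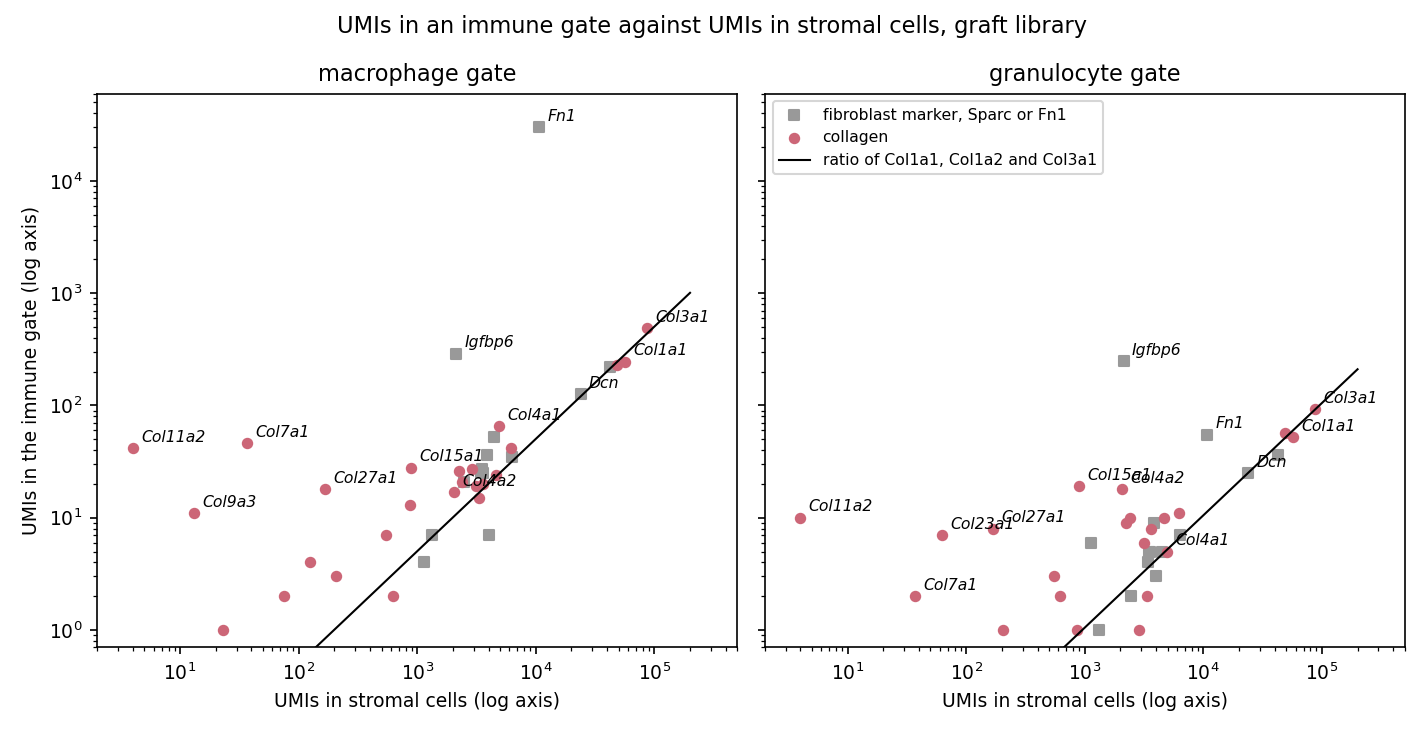
UMIs of each gene in the macrophage gate and in the granulocyte gate (vertical log axes) against its UMIs in 173 stromal cells of the graft (horizontal log axes), for collagens, fibroblast markers, Sparc and Fn1. The line is the ratio of Col1a1, Col1a2 and Col3a1, 5.03 and 1.05 UMIs per 1000 stromal UMIs, and genes without a UMI in the gate (4 and 7 collagens) are not drawn. Col11a2 and Col7a1 lie far above the line in macrophages.

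The cultures are immune cells grown away from skin, and the comparison between them asks whether VD3 moves any collagen. They held 2065 collagen UMIs from 31 members in Co-Mac and 2199 from 25 in VD-Mac. Col27a1 led in both, with 1003 UMIs (7.57 CPM, 7.10 to 8.05) in Co-Mac and 1383 (11.9 CPM, 11.3 to 12.5) in VD-Mac. It was the only member at 10 CPM or more in either, and its log2 ratio of 0.65 (0.53 to 0.77) was below the 2-fold used here. Among the alternatives that ratio ran from 0.18 to 0.75, beyond the lower end. So 0 of 1 member tested was higher and 0 lower in VD-Mac, where 2.16% of 7732 genes were higher and 4.63% lower. Within the dendritic cell gate Col27a1 stood at 20.8 CPM in Co-Mac, 24.0 CPM in VD-Mac and 23.6 CPM in the graft, so dendritic cells of all 3 libraries held it at a like level, and the ratio between cultures within that gate was 0.21 on the log2 scale (0.05 to 0.36). In macrophages it was 0.71 (0.23 to 1.20), from 59 and 98 UMIs, and in granulocytes −0.56 (−1.81 to 0.64), from 16 and 11.

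Below 10 CPM, Col11a2 had 143 UMIs in Co-Mac and 332 in VD-Mac (log2 ratio 1.40, 1.12 to 1.70), and in macrophages alone 23 and 74. The log2 ratio of Col11a2 ran from 1.03 to 1.66 among the alternatives, beyond the lower end. Col15a1 went the other way, with 153 and 31 UMIs (−2.12, −2.72 to −1.55), as did Col23a1 with 44 and 12 (−1.69, −2.74 to −0.74) and Col5a1 with 63 and 18 (−1.62, −2.46 to −0.85). Of the 63 UMIs of Col5a1, 18 were in the Co-Mac cell that passed the fibroblast gate, and macrophages alone had 27 and 8. Col20a1, a fibril-associated gene named after its values were seen, had 56 and 117 UMIs (1.25, 0.78 to 1.74). In macrophages alone it had 11 and 20 (0.84, −0.29 to 2.05), an interval that spans 0. In dendritic cells it had 21 and 44 (0.90, 0.12 to 1.72), and in granulocytes 1 and 5. Each of these levels is low, and the differences have no replicate check. The cultures also differ in make-up, with 252 cells in the monocyte gate of Co-Mac and 7 in that of VD-Mac. The part of make-up in these differences was not tested, and Col23a1 has no value within a gate. The median log2 ratio over all 7732 genes tested was −0.10. Col7a1 had 34 and 51 UMIs in all kept cells of Co-Mac and VD-Mac. In their macrophage gates it had 10 and 17, or 0.263 and 0.441 CPM, against 3.92 CPM in graft macrophages. Col4a1 had 4 and 3 UMIs in cultured macrophages. In the same cultured macrophages Col11a2 stood at 0.606 and 1.92 CPM and Col15a1 at 1.45 and 0.493 CPM.

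The UMIs of Col1a1, Col1a2 and Col3a1 in Co-Mac came nearly all from 1 cell. A single Co-Mac cell passed the fibroblast gate, with 58539 UMIs, 121 of Dcn and none of Lum. It held 341 collagen UMIs of 14 members, among them 86 of Col1a1, 123 of Col1a2 and 55 of Col3a1. That is 264 of the 265 UMIs of these genes in Co-Mac, or 99.6%, while the rest of that library had 1. VD-Mac had 18 UMIs of Col1a1 in 18 cells, 1 of Col1a2 and 0 of Col3a1. All collagens together were 0.28 higher in VD-Mac on the log2 scale, and 0.54 higher without that cell, an alternative chosen after the data were seen. Cultured immune cells thus gave almost no UMIs of the leading fibrillar genes, where a graft macrophage had 0.577 UMIs of Col3a1 on average.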

How the data were processed

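Single-cell RNA was measured in 3 libraries, hSTSG, Co-Mac and VD-Mac. The values are counts: the authors deposited unscaled UMI counts of each gene in each barcode, which came from Cell Ranger 3.1.0 per the file headers. The labels name an earlier mouse genome build than the promoter table, so no coordinate was carried between them. The paper names a human genome for the alignment, while the deposited gene list holds mouse genes. Antibody tag counts, 20 kinds in hSTSG and 10 in each culture, were left out. No map from these tags to mice or dishes was found.

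Cells with at least 300 genes, under 100000 gene UMIs and under 10% mitochondrial UMIs were kept. Gates needed UMIs of at least 3 markers and 1 marker UMI per 1000. Doublets were handled by leaving cells that passed several gates out of the gates as mixed cells, and no doublet caller was run. Co-Mac and VD-Mac share 19 barcodes (15 among kept cells), Co-Mac and hSTSG 7 (3), VD-Mac and hSTSG 7 (6). They were kept in each library. UMIs were summed per gate. Intervals are exact: Poisson for levels, Clopper-Pearson for shares, conditional binomial for ratios. With 1 library per condition no test was made. The calls of fibroblasts against immune gates were tested on simulated data with counting error only, and the other calls were not. That simulation holds no spread between cells and no mixed cells, so it does not show that the calls hold in these data.

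Members with at least 20 UMIs in the graft were described by name or class, the others by their counts. Of other pathway genes, the 3 with the highest fibroblast level per class were named. Genes outside this rule, among them those named in correlations, were chosen after their values were seen. The members, markers and lists were chosen with earlier results of these data known. Alternatives covered filters, mixed cells, clusters, gate strictness, scaling, thinning and thresholds.

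Tools were Python 3.11.15, numpy 2.4.6, scipy 1.17.1, pandas 2.3.3 and matplotlib 3.10.9, and for clusters R 4.3.3 with Seurat 5.3.0 (15 principal components, 15 neighbors, resolution 0.5, 2000 variable genes without collagens).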

Additional observations from a re-analysis of the deposited data

Results flagged for a closer look

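Collagen was also found in barcodes that the cell filter removed and that no comparison uses. Of the 500 barcodes left out of the graft library, 23 passed the fibroblast gate, and 5.42% of their UMIs were collagen (5.29 to 5.55), 6105 of 112699. That is above the 3 counts that a count of 0 allows and slightly below the 6.38% of kept fibroblasts. Their median mitochondrial share was 33.1%. Left-out barcodes of 2 other gates held more collagen than kept cells: 1.18% against 0.698% for 13 endothelial barcodes and 0.0288% against 0.0122% for 75 macrophages. The 306 barcodes with fewer than 300 genes held 287 collagen UMIs, 0.0407% of their total. In 122 left-out barcodes of the erythroid or platelet gate there were 44 collagen UMIs, 0.00900%. These held 77.8 CPM of Col1a1, Col1a2 and Col3a1 together, against 82.5 CPM in kept macrophages. The part of free RNA in this was not tested.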

How the results depend on the processing

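No paired analysis was possible because each group is 1 library. All groups carry replicate number 1, and Co-Mac and VD-Mac also share the GM-CSF culture and its day 7. With counts of cells this low, 3 pericytes or smooth muscle cells and 18 endothelial cells limit what can be said of vessel collagens. The digests of 5 mice were pooled and no map from antibody tags to mice was found, so cells were not divided by animal. Human collagen has no gene of its own in these counts. Whether human reads were counted under mouse genes was not tested. Free RNA was described by ratios and not subtracted.

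Of the recomputed values of the main results, 81 stayed within their interval or within 1.5 times their count, 34 moved beyond it, and no sign was reversed. For single collagens 203 values stayed within the interval and 45 did not, with 0 changes of sign. The count of collagens higher in fibroblasts than in immune gates ran from 22 to 29, and of those higher in endothelial cells than in fibroblasts from 4 to 5. Set against fibroblasts alone, an alternative chosen after the data were seen, 13 collagens in place of 11 exceeded the fibrillar ratio in macrophages. No share of all genes was taken for that alternative. The cause of the moves below was not tested, except where the setting changes the total or the depth itself.

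Collagen percent of UMIs in fibroblasts, endothelial cells and macrophages came to 6.23, 0.835 and 0.0114 with under 5% mitochondrial UMIs, 6.32, 0.841 and 0.0150 with mixed cells kept in the type of most marker UMIs, 6.45, 0.629 and 0.0206 as a mean over cells, and 7.94, 0.901 and 0.0145 with mitochondrial and ribosomal protein genes left out of the total. In fibroblasts and endothelial cells it was 6.19 and 0.864 by clusters, and in fibroblasts 6.33 with 1 marker more. The percent of collagen UMIs in fibroblasts was 85.9 with under 5% mitochondrial UMIs, 95.4 with mixed cells kept, 96.8 by clusters and 92.0 with 1 marker more.

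The log2 ratio of Col1a1, Col1a2 and Col3a1 was 9.21 with mixed cells kept and 8.66 as a mean over cells, and that of Col4a1 and Col4a2 was 2.66 with under 5% mitochondrial UMIs. Shares of macrophages, granulocytes and T or NK cells with a UMI of the 3 fibrillar genes were 11.5%, 15.4% and 8.62% when thinned to 1000 UMIs, and 61.9%, 29.4% and 40.5% without thinning. Thus the macrophage share is the highest only without thinning.

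Between cultures at 2-fold with a minimum of 1 CPM, 2 collagens were higher in VD-Mac (Col20a1 and Col11a2) and 1 lower (Col15a1). At 1.5-fold with 10 CPM, 1 was higher. The share of all genes was not taken at these settings, so nothing is read from these counts. The log2 ratio of all collagen was 0.13 as a mean over cells, 0.37 with the smaller total and 0.54 without the fibroblast-gated Co-Mac cell.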
